A study of Rattus norvegicus with 12 samples.

Results

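The wildtype (WT) rat left ventricle was described from 6 hearts, 1 array per heart, out of the 12 arrays of a study that set hearts with a cardiomyocyte-specific VEGF-B transgene beside WT hearts. The 6 WT rats carried no transgene, were male Wistar rats (HsdBrl:WH in the study's methods) aged 2 months, and are given as littermates of the transgenic rats in the series' design text; Wistar rats are outbred, so they are not genetically identical. The transgenic hearts were not compared here. Total RNA of the whole left ventricular sample was read as biotin-labelled cRNA on an Illumina RatRef-12 BeadChip, so that the values are a mixture of cardiomyocytes, fibroblasts, vessels and blood. A probe was counted as detected where its detection p-value, which sets its signal against the negative control beads, was under 0.05. Of the 22517 probes on the array, 7673 (34.1%) were detected in all 6 WT hearts, 2543 in 1 to 5 hearts and 12301 in none. The annotation gave 1 gene symbol for 5904 of the 7673 probes, which covered 5828 genes, and the other 1769 probes were only counted.

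The working heart muscle cell contracts without rest, and its energy comes almost entirely from mitochondria that burn fatty acids, with glucose and lactate as further fuels. ATP made by the respiratory chain and ATP synthase drives the myosin heads of the sarcomere and the calcium pump of the sarcoplasmic reticulum, and creatine kinase and the adenine nucleotide carriers link supply to use. Fibroblasts, endothelial cells, pericytes and macrophages outnumber the cardiomyocytes in most hearts but are smaller cells with less RNA each. In bulk samples like these, fewer cells of a type and less RNA per cell cannot be told apart.

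The arrays were alike. Between 8452 and 9251 probes were detected per heart (8817 ± 324, SD, n = 6), and the median intensity of the probes not detected, which is the level of the background, lay between 139.6 and 149.1. The highest single intensity was 36940. Over the 7673 detected probes, the normalized log2 values of any pair of hearts had Spearman correlations between 0.984 and 0.988 and Pearson correlations between 0.990 and 0.993, across genes, which are not independent replicates. The 100 brightest probes held 22.7% ± 0.386 of the signal of the detected probes after subtraction of the background (SD, n = 6), and the brightest 500 held 55.7% ± 0.310. The number of arrays limits the precision of every value below. Ranks order the probes by their mean normalized log2 intensity over the 6 hearts. Probes differ in how well they bind, so a rank is a rank of probe signal, and no fold difference between genes is given.

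The brightest ranks were filled by the machinery that makes ATP and by the contractile apparatus. Of the 78 named probes among the 100 brightest, 29 (37.2%) belonged to the respiratory chain or ATP synthase, 13 (16.7%) to the sarcomere, Z-disc and costamere, 10 (12.8%) to the citrate cycle, fatty acid oxidation and energy transfer, and 5 (6.41%) to the cytosolic ribosome. The groups were counted by gene lists, and Ndufab1, a further complex I subunit among the 100 brightest, was in none of them. Together these groups held 57 of the 78 probes (73.1%), against 212 of all 5904 named detected probes (3.59%). Past rank 500 they thinned out, and between ranks 501 and 4000 there was no listed respiratory chain or ATP synthase probe. The ribosome was centred lower, with 35 of its 59 detected probes between ranks 101 and 500. Transcription factors of the heart lay lower again, with a median rank of 2520. Of their 12 detected probes 0 were in the brightest 500, where 375 of all 5904 named detected probes lay. With 12 probes, a count of 0 cannot be told from that share. The same share stands beside the counts in the brightest 500 given below.

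**Figure D1:**
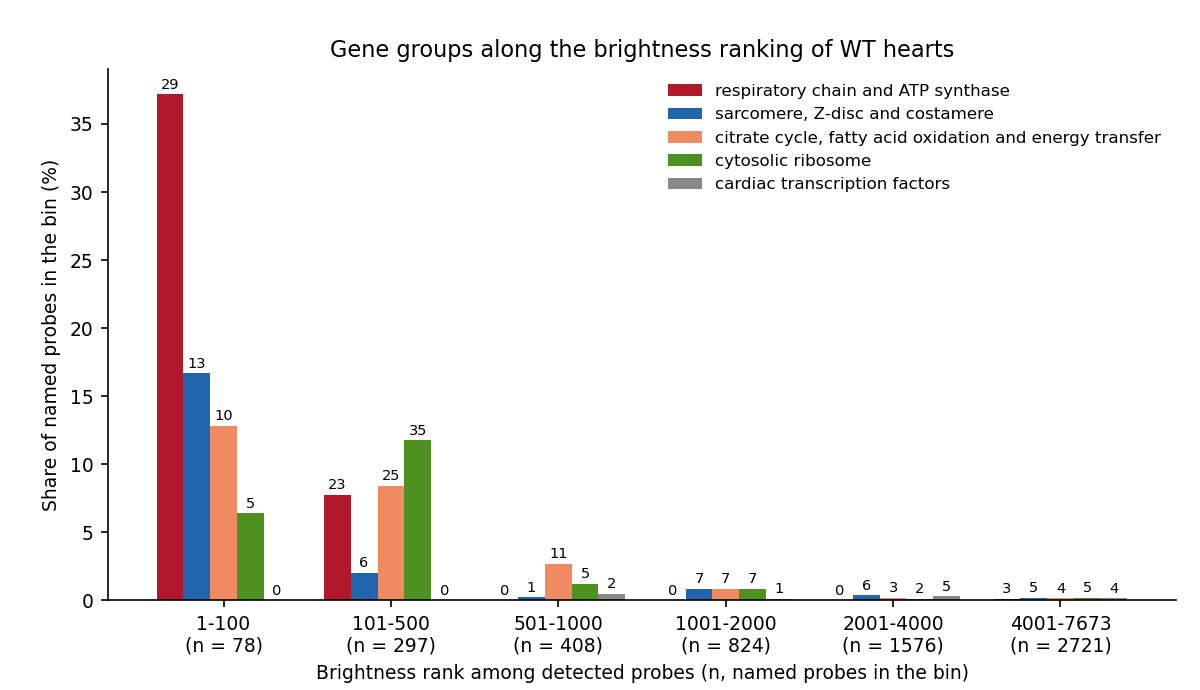
Share of the named probes (vertical axis, percent) that belonged to each of 5 gene groups, in 6 bins of brightness rank (horizontal axis), with the number of probes above each bar. Listed respiratory chain and ATP synthase probes made up 37.2% of the named probes in the first bin and 7.74% in the second, while ribosomal probes peaked in the second bin at 11.8%.

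Among the named probes, 4 of the first 12 belonged to ATP synthase, the rotary enzyme of the inner mitochondrial membrane that makes ATP from the proton gradient. Atp5f1a, the catalytic core's alpha subunit, ranked 3 with a lowest, median and highest intensity of 30336, 32617 and 36940. Atp5po, part of the stalk that holds the core in place, ranked 6 (30822, 32025 and 33263), Atp5me, a membrane subunit, ranked 12 (28801, 30102 and 33714) and Atp5mc1, of the rotating ring, ranked 14 (29419, 30211 and 33044). The range of each over the hearts was small, and no heart was lowest for all of them. Of the 13 subunits on the array, 12 were detected in all 6 hearts and 11 were in the brightest 500. The exception was Atp5mk, a small accessory subunit, at rank 5806 and with an SD of 0.58 on the log2 scale (n = 6), the widest of the list, or 0.29 without background correction.

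The complexes of the respiratory chain pass electrons from NADH and succinate to oxygen and pump protons. Of complex I, the NADH dehydrogenase, 25 of the 28 listed subunits were detected and 24 lay in the brightest 500, led by Ndufb9 (rank 28) and Ndufb5 (rank 33). The list left out Ndufab1, an accessory subunit whose probe was among the 100 brightest, so these counts are of listed genes. Complexes II and III, with cytochrome c, had 9 of 9 detected and all 9 in the brightest 500, led by Uqcrh (rank 17; 27396, 30411 and 32539) and Uqcrfs1, the Rieske iron-sulphur protein (rank 20). Of complex IV, cytochrome c oxidase, 9 of 9 were detected and 8 were in the brightest 500, with the muscle isoforms Cox8b (rank 37) and Cox6a2 (rank 53) beside the widely expressed Cox4i1 (rank 50). The median SD was 0.08 on the log2 scale for complex I, 0.08 for complexes II and III, 0.05 for complex IV and 0.07 for ATP synthase, against 0.14 for all detected probes. With arrays only scaled to the same median these became 0.08, 0.10, 0.07 and 0.11, against 0.15. Bright probes were even in general, with a median SD of 0.07 over ranks 1 to 100 and of 0.09 over ranks 101 to 500. Ndufb5 had an SD of 0.02 and Cox6a1, another complex IV subunit, one of 0.03. Complexes I and IV each had 1 detected subunit outside the brightest 500: Ndufv3 ranked 5855 and Cox6c ranked 7199, near the limit of detection, with 196.1, 212.1 and 244.6.

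Fuel handling was close behind. Lpl, the lipoprotein lipase that frees fatty acids from circulating triglyceride, ranked 4 (31659, 32470 and 33239) and was among the most even bright probes (SD 0.03). Fabp3, the fatty acid binding protein of heart muscle, ranked 34, and Acadl, long-chain acyl-CoA dehydrogenase, ranked 26 with an SD of 0.03. All 25 genes of fatty acid oxidation on the array were detected in all 6 hearts, 13 of them in the brightest 500. All 22 genes of the citrate cycle and pyruvate oxidation were detected too, again 13 in the brightest 500, led by the mitochondrial isocitrate dehydrogenase Idh2 (rank 64; 20956, 22840 and 25758), whose other probe was detected in 0 hearts (122.3 to 153.2). Glycolysis and glucose uptake had 18 of 21 genes detected and 10 in the brightest 500, led by Ldhb, the lactate dehydrogenase subunit of heart (rank 25), and Aldoa, an aldolase (rank 94). The insulin-responsive glucose carrier Slc2a4 ranked 623, whereas Slc2a1, the basal carrier, was detected in 0 of 6 hearts. Slc25a4, the ADP/ATP carrier of heart and muscle, ranked 9 (29014, 30702 and 33266), Ckm, the muscle creatine kinase, ranked 16 (27331, 30478 and 32309), and Mb, myoglobin, ranked 30 (26353, 28316 and 30075).

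Some enzymes of these and related lists had a wider spread. Pdk4, the kinase that shuts off pyruvate dehydrogenase and that is known to follow fasting, had 764.5, 1102 and 1815 as its lowest, median and highest intensity, an SD of 0.54 on the log2 scale. WT replicates 2 and 5 were high and WT replicates 3, 4 and 6 low. Eno3, the muscle enolase, had an SD of 0.41 and was lowest in WT replicate 2 (814.7, against a median of 1316), without which the SD was 0.25. Dgat2, which makes triglyceride, had an SD of 0.80 with 200.4, 289.1 and 469.2; it was dim, and its SD was 0.43 on log2 values without background correction.

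The sarcomere was represented by its thin and thick filament and by the Z-disc that anchors them. Tnnc1, the calcium sensor troponin C, ranked 23 (25978, 29107 and 31461), Tpm1, tropomyosin, ranked 29, and Tnnt2, troponin T of heart, ranked 31 (27124, 28360 and 29544, SD 0.03). Of the thick filament, Myl3, the essential light chain, ranked 39, Myh6, the fast alpha myosin heavy chain of the adult rodent ventricle, ranked 54 (22344, 25003 and 26340) and Myh7, the slow beta chain, ranked 78. Atp2a2, the calcium pump that refills the sarcoplasmic reticulum, ranked 22 (28884, 29638 and 31037). At the Z-disc, Cryab, a small heat shock protein that guards desmin, ranked 13, Des, desmin itself, ranked 49, and Ankrd1, a stretch-responsive repeat protein, ranked 48.

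All 4 markers set for it were detected in all 6 hearts. Myh6 and Tnnt2 were among the 100 brightest probes, but the probe for Myl2, the regulatory light chain of the ventricle, ranked 2113 (817.7, 1115 and 1270) and the probe for Actc1, cardiac actin, ranked 4775 (343.6, 361.1 and 400.3). Both genes code for abundant sarcomere proteins, and each had 1 named probe on the array. Whether these probes read their transcripts poorly was not tested. Acta1, the skeletal actin that hearts also express, was much brighter by its own probe, at rank 273.

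Of 13 cardiomyocyte markers listed, 11 were on the array, all were detected and 7 were in the brightest 100, with a median SD of 0.08. Fibroblast markers followed, with 19 of 20 detected in all hearts, led by Gsn, gelsolin (rank 106), Col1a2 and Dcn, a collagen chain and a matrix proteoglycan. Of the endothelial markers 15 of 20 were detected, led by Fabp4 (rank 331), which adipocytes share, and of the macrophage markers 10 of 14, led by Fcer1g (rank 2169) and the microglia and macrophage gene Aif1. Pericyte markers had 6 of 9 and smooth muscle markers 6 of 10, although the brightest of the latter list, Des, is shared with cardiomyocytes and Cnn1 and Mylk were detected in none. For cell types that a ventricular sample would hold little of, fewer genes were detected in all 6 hearts: lymphocyte 3 of 14, skeletal muscle 3 of 12, neutrophil and mast cell 2 of 14, Schwann cell and neuron 5 of 18, and mesothelium and epicardium 1 of 9, where 34.1% of all probes were. In at least 1 heart, 7, 6, 6, 7 and 2 of the genes of these lists were detected. Of all 22517 probes, 2543 were detected in 1 to 5 hearts and 12301 in none. By that looser count the lymphocyte, skeletal muscle and neutrophil and mast cell lists lay near the share of all probes. Of the 13787 probes with a symbol, 5904 were detected in all 6 hearts. Of the adipocyte list 4 of 13 were detected in all hearts, but Adipoq, Lep and Retn in none. Of the 22 cell cycle genes 14 were detected in at least 1 heart and 3 in all 6, namely Pcna, Mcm6 and Mcm2, all of which act in DNA replication.

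**Figure D2:**
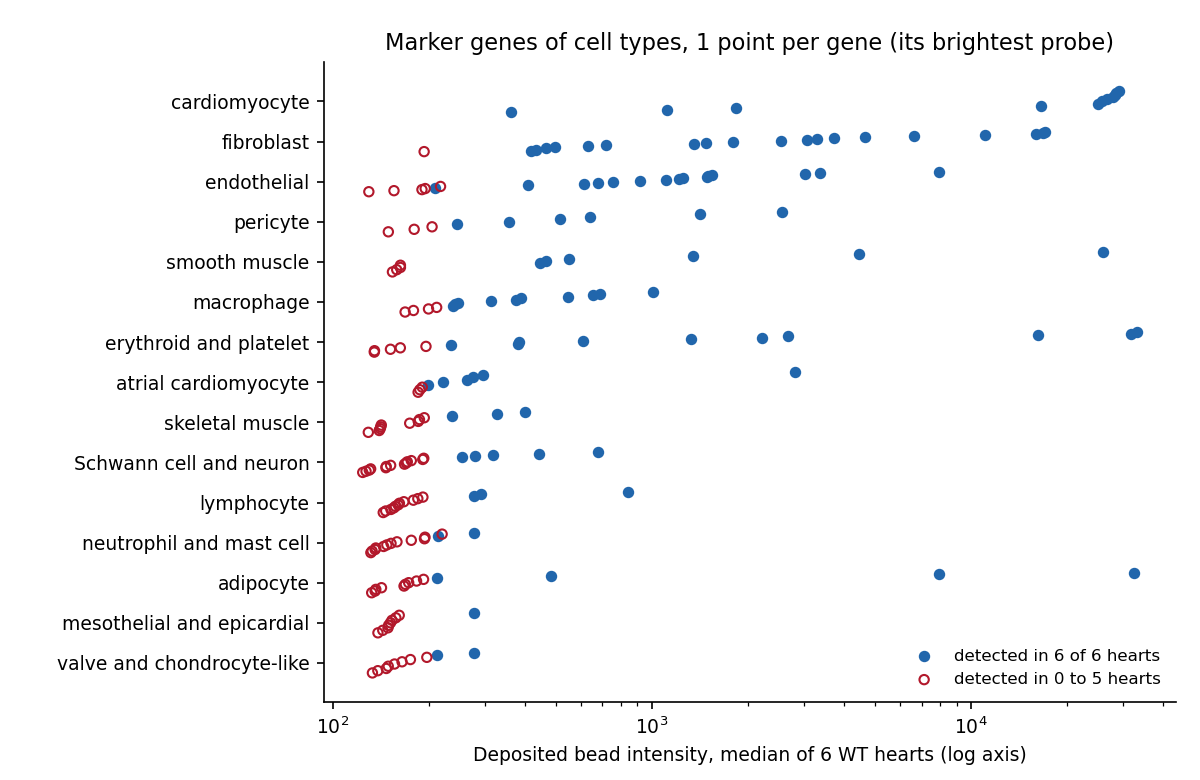
Median deposited intensity of 6 WT hearts (horizontal log axis) for the marker genes of 15 cell types (rows), 1 point per gene, filled where the gene was detected in all 6 hearts and open where it was detected in fewer. Cardiomyocyte markers crowd at the bright end apart from 3 dimmer ones, and markers of lymphocytes, skeletal muscle and epicardium lie mostly open near the background.

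Globin transcripts were among the brightest in every heart. Hbb, a beta globin, ranked 2 (30937, 33147 and 34817) and Hba-a1, an alpha globin, ranked 7 (30143, 31626 and 34383). Of 15 erythroid and platelet genes on the array 10 were detected in all hearts, including Ahsp, the alpha globin chaperone (rank 4723), and Pf4, of platelets (rank 3257), while Alas2, the first enzyme of heme synthesis in red cells, was detected in 3 hearts. Hbb-b1, a second beta globin gene, differed more between hearts (8079, 16213 and 20617, SD 0.51), with WT replicate 4 lowest and WT replicates 1, 3 and 5 high. Without WT replicate 4 its SD was 0.28. Globin genes are near-identical copies, so their probes may share signal.

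Other bright probes had varied roles. Fth1, the heavy chain of the iron store ferritin, ranked 10 (28361, 30920 and 34150), B2m, the light chain of MHC class I, ranked 57, Tpt1, a growth-related protein bound to translation, ranked 35, and Hspb6, a small heat shock protein of muscle, ranked 21. Akr1c12, an aldo-keto reductase with close paralogs, ranked 11 (28187, 31313 and 33180), but its other probe was detected in 0 hearts (124.8 to 137.5). Sv2b, known as a synaptic vesicle protein, ranked 27 (28178, 28630 and 31058). Genes used by nerve endings were otherwise dim, with Npy and Gap43 at medians of 441.6 and 316.7. Rplp0, of the large ribosomal subunit, ranked 18 and Rps14, of the small one, ranked 98. The large subunit had 37 of 42 genes detected and the small one 22 of 23. Rpl30 and Rps9 were the most variable of them (SD 0.52 and 0.41): Rpl30 was highest in WT replicate 4 (4748, against a median of 2471) and Rps9 lowest in WT replicate 3 (730.9, against 1401), without which its SD was 0.16.

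The 10 most even named probes among the 500 brightest had SDs between 0.02 and 0.04. They included Ndufb5, Cox6a1, Lpl, Atp5po, Acadl and Tnnt2 of the groups above, with Crip2, a LIM domain protein (0.02), Got1, an aspartate aminotransferase of the malate-aspartate shuttle (0.03), Slc25a5, a second ADP/ATP carrier (0.03), and Map2k3, a kinase upstream of p38 (0.04). Quantile normalization gives the top ranks the same values on every array, which narrows the spread of the brightest probes by construction. The median SD of the 100 brightest was 0.07 here and 0.09 when arrays were only scaled to the same median. Under that scaling the SDs of these 10 probes lay between 0.04 and 0.09. Leaving out 1 heart lowered the SD by over 1.5 times for Atp5po (0.01 without WT replicate 5), Cox6a1 (0.02 without WT replicate 3), Tnnt2 (0.02 without WT replicate 3), Slc25a5 (0.02 without WT replicate 6) and Acadl (0.02 without WT replicate 1).

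Between hearts, most probes varied little. The median SD over the 7673 probes was 0.14 on the log2 scale, a factor of about 1.11, and 90% of the probes lay between 0.06 and 0.31. The spread grew as the signal dimmed: the median SD was 0.07 for ranks 1 to 100, 0.11 for ranks 1001 to 2000 and 0.18 for ranks 4001 to 7673. Without background correction the same bins had 0.0684, 0.1025 and 0.0951, and ranks 2001 to 4000 had 0.1054. On that scale the spread did not grow past rank 4000, and the dim probes were wider than the 100 brightest by less. An SD over 0.5 was reached by 61 probes (0.795%), of which 51 were named, and an SD over 1 by 4. The count was 18 without background correction, 30 with normexp and an offset of 50, and 18 in the deposited log2 table. Of the 61 probes, 16 were in the 6 lists of clock, MHC, interferon, atrial, fasting and immediate early genes described below, 35 were other named probes and 10 were unnamed. In that order the lists held 11, 17, 14, 6, 12 and 18 detected genes, some of them in more than 1 list, against 7673 detected probes. The lists were chosen with earlier results of these data known, so the 16 are not a test of them.

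**Figure D3:**
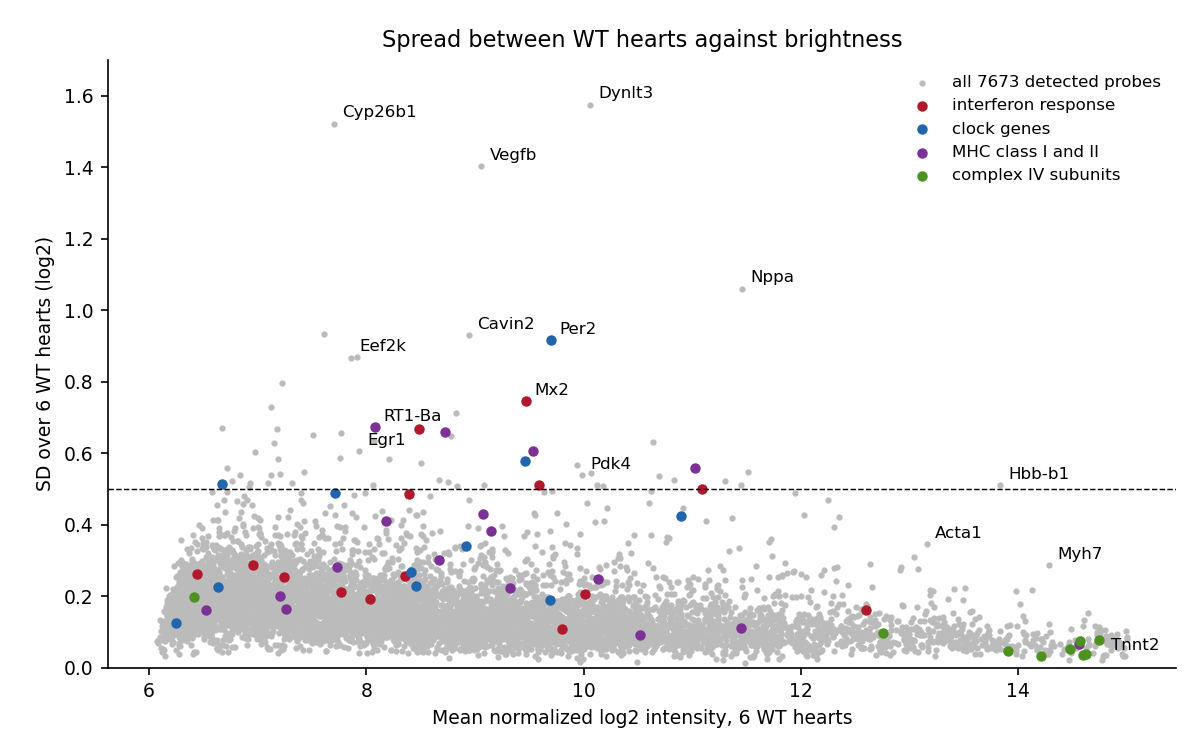
SD over the 6 WT hearts (vertical axis, log2 scale) against mean normalized log2 intensity (horizontal axis) for the 7673 detected probes, with members of 4 gene lists in colour and the dashed line at an SD of 0.5. Complex IV probes lie along the floor at the bright end, whereas Dynlt3, Cyp26b1, Vegfb and Nppa lie above an SD of 1.

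The 4 widest probes had different shapes. Dynlt3, a dynein light chain gene on chromosome X, had intensities of 1706 to 1914 in 5 hearts and of 232.8 in WT replicate 3, an SD of 1.58 that was 0.06 without that heart. Cyp26b1, which breaks down retinoic acid, was high in WT replicate 4 (1186) and WT replicate 1 (695.1) and near background in WT replicate 3 (198.3) and in WT replicate 5, SD 1.52 (1.00 without background correction). Vegfb, the endogenous rat gene of the growth factor that the study expressed as a transgene, had 218.8, 877.2 and 1242 as lowest, median and highest, an SD of 1.40. WT replicate 5 was lowest and WT replicates 2, 4 and 6 were all above 1000, and the SD without WT replicate 5 was 0.60. Nppa, atrial natriuretic peptide, ranked 844 and spanned 977.3, 2797 and 8425 with WT replicate 1 highest and WT replicate 5 lowest, SD 1.06 (0.67 without WT replicate 5).

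Vegfb thus had the widest spread among the VEGF ligands and receptors that had a named probe. Vegfa, the main growth factor of vessels, had an intensity of 1736, 1833 and 1993 (rank 1276, SD 0.14), and Vegfc, which acts mostly on lymphatic vessels, 449.7, 503.7 and 565.5 (SD 0.15). Vegfd was close to the limit of detection (rank 7594). Of the receptors, Nrp1, the neuropilin co-receptor for VEGF-A and VEGF-B, ranked 548 (3964, 4452 and 5198, SD 0.09, or 0.06 without WT replicate 1). Flt1, VEGF receptor-1, was detected in 2 hearts, the ligand Pgf in 1 and Nrp2 in 0.

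Several other probes fell into 2 levels rather than a continuous range. Eef2k, the kinase of elongation factor 2, had intensities of 612.5 and 610.8 in WT replicates 3 and 5 and of 276.6 to 321.1 in the other 4 hearts. Coq7, an enzyme of coenzyme Q synthesis, followed the same split, with 393.2 and 380.7 in WT replicates 3 and 5 and 227.7 to 242.9 in the rest. Both genes lie on chromosome 1, with 62 annotated genes between them in the GRCr8 assembly. Cavin2, a coat protein of caveolae, was low in WT replicates 4 and 6 (351.2 and 346.9) and between 687.4 and 1087 in the other 4. Nudt19, a hydrolase of coenzyme A, was high in WT replicate 4 alone (391.6, against 193.4 to 244.8), without which its SD was 0.14. Add3, a membrane skeleton adducin, was graded rather than split into 2 levels. It was lowest in WT replicates 3 and 5 (344.8 and 411.0) and ran from 639.4 to 934.8 in the rest. Without background correction the SD was 0.40 for Coq7, against 0.73 with it, and 0.36 for Nudt19, against 0.67. WT replicates 3 and 5 together held the 2 highest or the 2 lowest values for 21 of the 61 widest probes (34.4%), and for 1301 of all 7673 detected probes. Among the 15 pairs of hearts this was the largest share of the widest probes, as it was under the other 6 settings of background and scaling, which gave 27.9% to 44.4% of 18 to 68 probes.

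**Figure D4:**
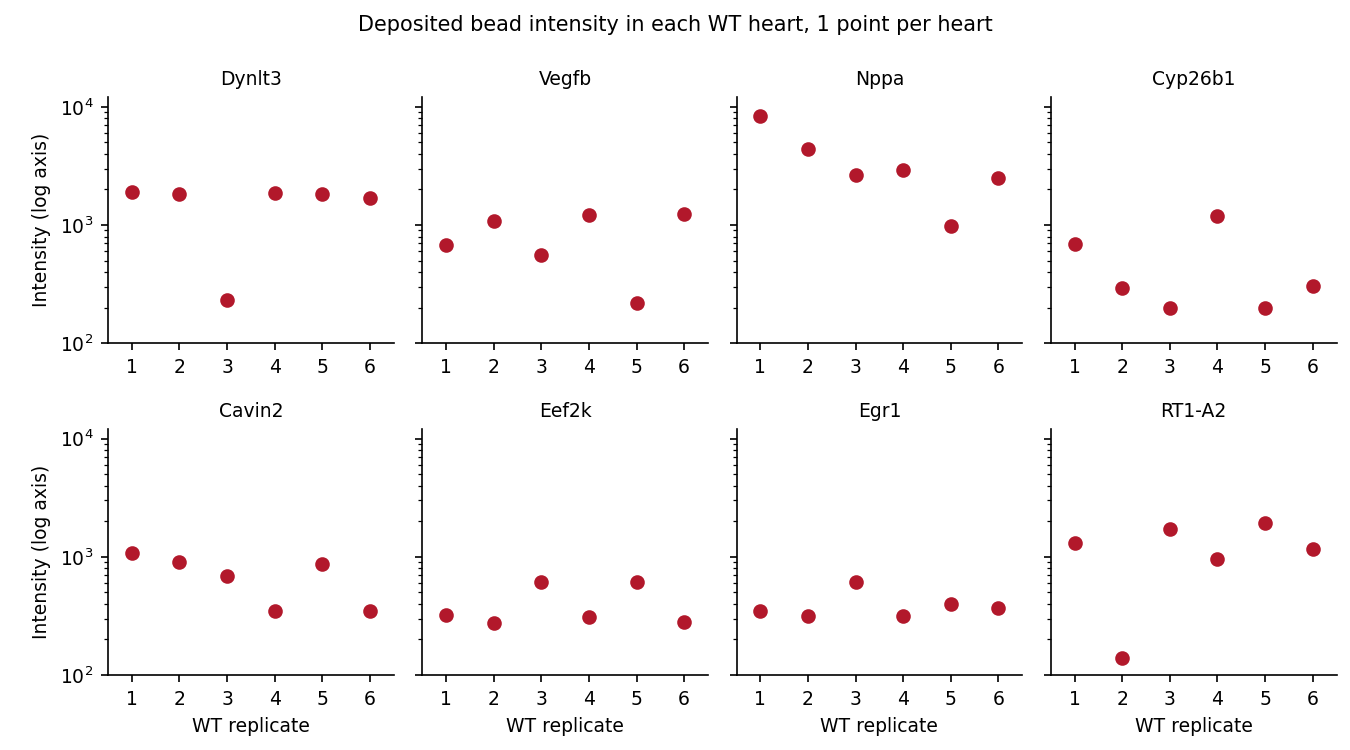
Deposited bead intensity (vertical log axis) in each of the 6 WT hearts (horizontal axis, replicate number) for 7 widely varying detected probes and for RT1-A2, which was detected in 5 hearts. Dynlt3, Vegfb and RT1-A2 each have a single low heart, a different one each time, and Eef2k has WT replicates 3 and 5 above the other 4.

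The list of the major histocompatibility complex had the second widest median spread of the lists with at least 10 detected members. Rat nomenclature calls the genes of this complex RT1, and they lie together on chromosome 20. The list also held their partners B2m (chromosome 3) and Cd74 (chromosome 18). Class I proteins show peptides to T cells from all nucleated cells and class II proteins from antigen-presenting cells, and both are highly polymorphic between animals. The median SD of the 17 detected genes of 38 on the array was 0.28, against 0.14 for all detected probes, and 4 members exceeded 0.5. RT1-A1, a class I heavy chain, had 1566, 2018 and 3838, with WT replicate 2 highest and WT replicate 3 second. RT1-A3, another class I gene, was likewise highest in WT replicate 2 (1509) and second in WT replicate 3 (1131) and lay between 685.5 and 786.1 in the other 4. RT1-Ba, the class II alpha chain, was highest in WT replicate 3 (670.2, against a median of 386.0), as was RT1-M6-2 (911.3, against 524.9). Without WT replicate 3 the SD of RT1-Ba was 0.39, against 0.67 with it. Smaller SDs were found for their partner B2m (0.07), for the class II gene RT1-Da (0.11) and for Cd74, the invariant chain (0.09, or 0.06 without WT replicate 3, in which its normalized value was highest, as for RT1-Ba). RT1-A2, which has 2 annotated genes between it and RT1-A1, was not among the 7673: its intensity was 965.0 to 1929 in 5 hearts but 138.3 in WT replicate 2, which was not detected. RT1 genes are near-identical copies and probes may read more than one of them.

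Many interferon-stimulated genes were highest in the same hearts: after normalization WT replicates 1 and 2 lay above the other 4 hearts for 9 of the 14 detected genes listed, and for 6.96% of all detected probes. Interferon signals through STAT and IRF factors to a set of antiviral genes, and Irf7 carries the signal forward. Of 21 such genes on the array, 14 were detected, with a median SD of 0.26, and the mean of these 14 genes deviated from the mean of the hearts by 0.31 in WT replicate 1 and 0.38 in WT replicate 2 on the log2 scale, by 0.04 in WT replicate 3 and by -0.30, -0.16 and -0.26 in WT replicates 4, 5 and 6. Mx2, an antiviral GTPase, had 506.7, 729.8 and 1539 (SD 0.75), and Mx1, also on chromosome 11, had 335.4, 454.7 and 776.8 (SD 0.67). In both, WT replicates 1 and 2 lay above the other 4. The same held for Irf7 (670.4, 815.2 and 1483, SD 0.51), Ifit1, an RNA-binding effector (351.0, 439.0 and 665.6, SD 0.49) and Ifi27l2b (1739, 1984 and 3682, SD 0.50). Slfn4, a Schlafen gene that was not in the list, was highest in WT replicate 2 as well (601.7, against a median of 330.1, SD 0.66, or 0.41 without that heart and 0.43 without background correction). Isg15 and Ifit3 were detected in 0 hearts. Macrophage markers, as a list of 10 detected genes, were highest in WT replicate 2 too (mean deviation 0.16) but were at 0.00 in WT replicate 1; their part in the interferon values was not tested.

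STAT and IRF factors bind the interferon-stimulated response element. The bases before the transcription start are shown for 3 detected interferon genes that hold it. Of these, Irf7 and Ifi44 were among the 9 genes with WT replicates 1 and 2 on top, and Gbp2 was not. Ifi27, which was among the 9, and Tap1, which was not, hold the element too. Whether the element has a part in the differences between hearts was not tested. The letters searched were GAAA, a gap of any 2 bases and GAAA again, on either strand, in the 250 bases before each start, in RefSeq promoters of the GRCr8 assembly. They occurred in 3.41% of all 33469 promoters and in 5 of the 11 detected interferon genes that had a promoter in the table. Each stretch of 70 bases reads 5′ to 3′ on the strand of the gene, with the element in capitals. They lie at chr1:205800053-205800122 (Irf7, minus strand), chr2:234005657-234005726 (Gbp2, plus strand) and chr2:243303841-243303910 (Ifi44, minus strand), and in all 3 the capitals are the reverse complement of the searched letters.
Irf7: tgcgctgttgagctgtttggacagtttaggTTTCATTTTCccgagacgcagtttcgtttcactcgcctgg
Gbp2: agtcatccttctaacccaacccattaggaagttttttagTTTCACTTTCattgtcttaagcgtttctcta
Ifi44: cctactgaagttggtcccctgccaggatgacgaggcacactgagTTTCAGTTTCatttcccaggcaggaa
In these sequences the element begins 69 bases before the start in Irf7, 31 in Gbp2 and 26 in Ifi44. A match is a description of the letters and not of a bound site. Gbp2, a guanylate-binding GTPase, had 386.0, 462.5 and 548.2 (SD 0.26), and Ifi44 had 321.3, 334.9 and 406.9 (SD 0.21, or 0.13 without background correction). The deposited intensity of both was highest in WT replicate 1, but after normalization Gbp2 was level in WT replicates 1, 2 and 3 and Ifi44 was highest in WT replicate 2.

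Clock genes had the widest median spread of the lists with at least 10 detected members, 0.34 over 11 detected genes of 14 on the array. The clock is a loop in which Bmal1 and Clock drive the Per and Cry genes, whose proteins then silence them, while Nr1d1 represses Bmal1; transcripts of each therefore pass through a daily cycle. Per2 had 454.1, 1001 and 1992 (SD 0.92), with WT replicates 1, 4 and 2 high and WT replicate 5 lowest. Per1 was high in WT replicates 2 and 4 (1251 and 1281) and lowest in WT replicate 3 (524.4), and Tef, a clock-driven transcription factor, was high in WT replicates 1 and 4 (444.4 and 451.3) and lowest in WT replicate 5 (263.2). Bmal1 ran the other way, with its highest intensities in WT replicates 5 and 3 (304.0 and 261.5) and its lowest in WT replicates 4 and 2 (200.5 and 206.1), although it was dim (SD 0.51, and 0.24 without background correction). Nr1d1 was highest in WT replicates 6 and 3 (3041 and 2427) and between 1699 and 1814 in the other 4. Clock itself was detected in 0 hearts. The times at which the hearts were taken are not given in the sources used here.

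The same promoter table was searched for the elements of the clock loop: the E-box CACGTG, which the Bmal1 and Clock pair binds, the D-box TTANGTAA, which Tef and its relatives bind, and the ROR element TAGGTCA, which Nr1d1 binds. These were found in 5.59%, 2.04% and 2.26% of all promoters, and in 3, 1 and 1 of the 10 detected clock genes with a promoter in the table. Below are Nr1d1 (chr10:84229606-84229675, minus strand) and Tef (chr7:115206599-115206668, plus strand) with the E-box in capitals, Per2 (chr9:99497146-99497215, minus strand) with the D-box, and Bmal1 (chr1:176766258-176766327, plus strand) with the ROR element. They are shown since the preceding paragraph gives the values of these genes.
Nr1d1: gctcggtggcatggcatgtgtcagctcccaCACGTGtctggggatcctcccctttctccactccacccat
Tef: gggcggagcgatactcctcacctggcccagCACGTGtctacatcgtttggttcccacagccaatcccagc
Per2: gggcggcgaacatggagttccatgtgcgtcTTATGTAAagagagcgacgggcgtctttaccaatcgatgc
Bmal1: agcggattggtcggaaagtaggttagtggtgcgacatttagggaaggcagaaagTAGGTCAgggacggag
The third gene with an E-box was Bhlhe40, a repressor in the loop (843.1, 947.6 and 1130, SD 0.19).

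Natriuretic peptides and genes of atrial muscle were described as a further set. The ventricle makes little Nppa in health, while the atria make much. Of 9 atrial genes on the array, 6 were detected, and their mean deviated by 0.45 in WT replicate 1 and by -0.59 in WT replicate 5. Nppa and Myl7 lay farthest from their means of 11.46 and 7.18. Their normalized log2 values were 12.86 and 8.1 in WT replicate 1, and 9.67 and 6.31 in WT replicate 5. No other detected gene of the list had an SD over 0.5, so the mean is not a shift of the whole list. Myl7, the atrial light chain, was highest in WT replicate 1 (437.4), as Nppa was. It was lowest in WT replicates 3 and 5 (207.2 and 211.7), with an SD of 0.67, or 0.35 without background correction. Nppa was lowest in WT replicate 5 too, but in WT replicate 3 it had 2664, near its median of 2797. The other detected atrial genes were less variable, with Nr2f2, an atrial transcription factor, at an SD of 0.16, Dkk3 at 0.21 and Bmp10 at 0.18 (0.05 without WT replicate 6). Without background correction these 3 SDs were 0.08, 0.11 and 0.08. Tbx5, Kcnj3 and Kcna5 were detected in 3, 3 and 1 hearts. Whether atrial tissue has a part in the Nppa values was not tested. Nppb, the ventricular peptide, ranked 289 and ranged over 7055, 8118 and 11562 (SD 0.28), with WT replicates 1 and 6 high. Acta1 was high in WT replicates 1 and 2 (12839 and 12783) and between 6379 and 8910 in the other 4 (SD 0.35), and Myh7 was lowest in WT replicate 5 (15042, against a median of 21233, SD 0.29). Myh6 kept an SD of 0.08.

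Of 12 detected genes known to follow fasting or glucocorticoids, the mean was highest in WT replicate 2 (0.28) and lowest in WT replicate 6 (-0.19). Pdk4 has been described above. Ddit4, an inhibitor of mTOR signalling, had 242.2, 373.4 and 491.1 (SD 0.59, or 0.36 without background correction), again highest in WT replicate 2, and Sgk1, a kinase induced by corticosteroids, was high in WT replicates 2 and 5 (1651 and 1661). Txnip, the brightest of the list (rank 258), was highest in WT replicate 6. Immediate early genes, which respond within minutes to stretch, growth factors or handling, had 18 of 22 detected with a median SD of 0.21. Egr1 was high in WT replicate 3 alone (616.2, against 315.5 to 397.9, SD 0.61, or 0.22 without that heart), and Fos, detected in 2 hearts, was brightest there as well (234.3). Klf2, a factor of flow-exposed endothelium, was high in WT replicates 2 and 4 (1847 and 1730, SD 0.51).

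**Figure D5:**
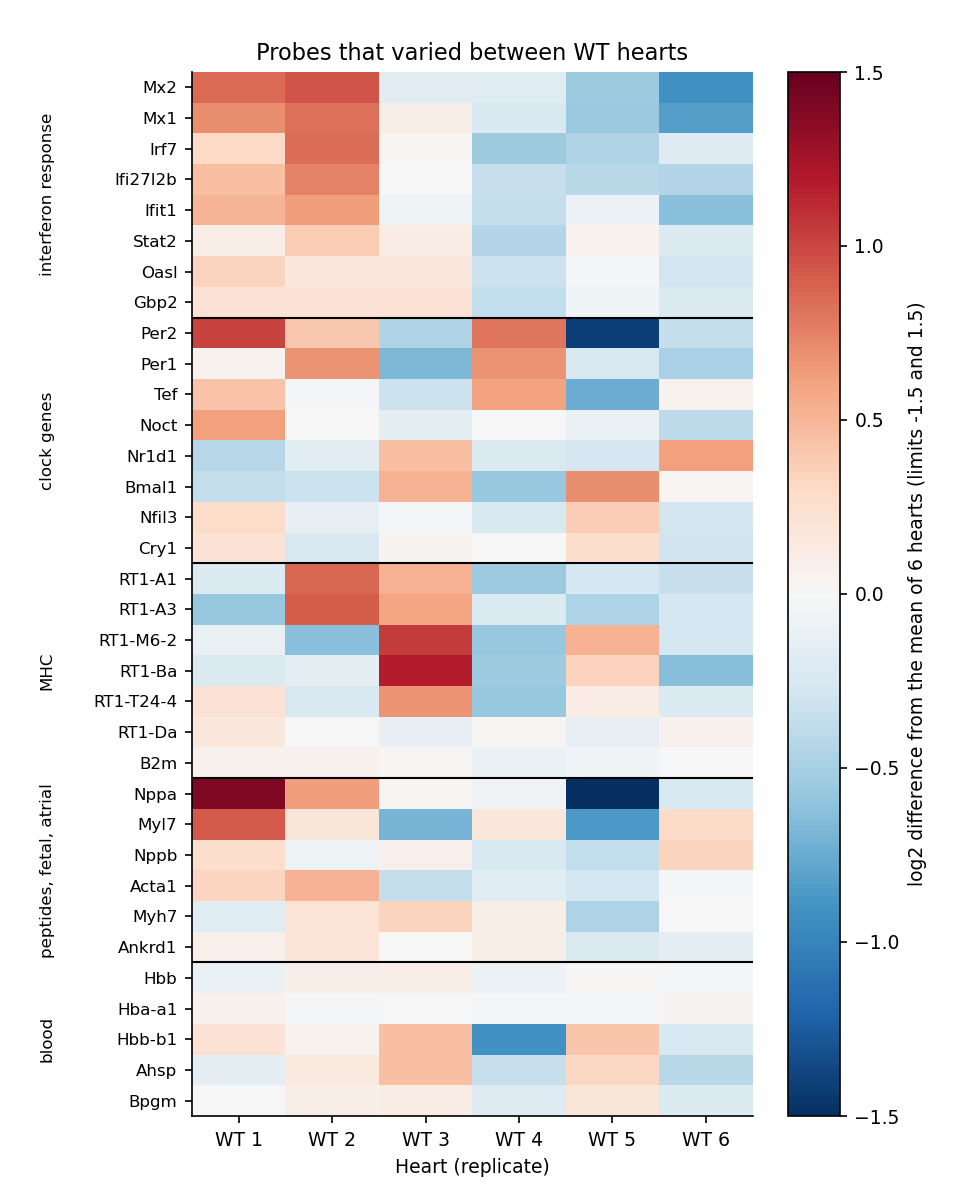
Difference of each probe's normalized log2 value from its mean over 6 hearts (colour, red above and blue below, on the scale of the bar) for probes of 5 sets (rows) in each WT heart (columns). Interferon genes are red in WT replicates 1 and 2, Per2 and Bmal1 take opposite colours in most hearts, and Hbb and Hba-a1 stay pale while Hbb-b1 is blue in WT replicate 4.

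At the other end of the ranking, the threshold of detection ran through a continuum. Adam10, Mtmr3 and Ankrd13a were just inside, with a highest detection p of 0.0497 over the 6 hearts, and Gng12, Mcts1 and Bcl2l1 were just outside with 0.0509. Their median intensities were 205.4, 203.9 and 202.8 inside, and 202.0, 210.8 and 213.3 outside. Among the 2543 probes detected in 1 to 5 hearts, 11 had an SD over 1, and 6 of these were named. Besides RT1-A2, they included Yipf7, an endomembrane protein, with 406.4 to 513.0 in WT replicates 4, 5 and 6 and 156.3 to 175.3 in the other 3, and Ptgr2, a prostaglandin reductase, with 178.7 in WT replicate 1 and 374.2 to 690.3 in the rest.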

How the data were processed

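Bead intensities and detection p-values of the 6 WT arrays were used as deposited: per the study's methods the authors had made them with GenomeStudio, and no normalization between arrays had been applied. Whether background had been subtracted is not stated. The other deposited file gave log2 values, which the authors had made in Chipster by quantile normalization, and these served as an alternative. From the intensities, neqc of limma 3.58.1 (R 4.3.3) gave normalized log2 values of the 6 arrays alone: the background was estimated from the detection p-values, an offset of 16 was added and quantiles were equalized. Means, ranks and SDs (n = 6) were computed in Python 3.11.15 with pandas 2.3.3 and tested on simulated data, and figures were drawn with matplotlib 3.10.9. No test between groups was made, as 1 group was described. A critical value was used only to flag single hearts, as given further below. Each array held RNA of a separate rat, per the study's methods.

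The platform annotation gave 1 symbol for 13787 probes, several for 0 and none for 8730. By gene number, 13747 symbols were updated to the GRCr8 annotation and 40 were kept. Where a gene had several detected probes, lists used the brightest. No probe positions were used.

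The members and gene lists were chosen with earlier results of these data known, and 8 lists (ribosome, complex I, proteasome and others) were filled by symbol pattern. Genes were named by a rule: the 25 brightest and 25 most variable named probes, the 10 most even of the 500 brightest, the 4 ventricle markers, the brightest and most variable member of each list, the VEGF ligands and receptors, the 3 probes farthest above and the 3 farthest below the others in each heart, and 3 on either side of the detection threshold. At the threshold 17 probes tied inside and 18 outside, and those named were taken by their order in the annotation. The rule gave 170 genes, of which the text names 93, and 47 more were chosen after their values were seen. Ndufab1 and Nr2f1 are named besides, and are not in these counts or among the named probes checked below. The alternatives were other detection rules, background corrections, scalings and measures of spread, all 12 arrays normalized together, 1 probe per gene, and each heart left out.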

Additional observations from a re-analysis of the deposited data

Results flagged for a closer look

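For each probe of a gene named above, the distance of the highest or lowest heart from the next one was divided by the range of all 6 normalized log2 values and set against Dixon's 95% critical value for 6 values. Chance passes it in about 1 of 20 groups, and 372 of the 7673 detected probes (4.85%) did. Among the 118 detected probes named in the text 10 passed. Many of these probes were named for a wide spread or for a single high or low heart. Their count can therefore not be set against the share of all probes. A low heart stood apart for Dynlt3 (WT replicate 3, ratio 0.965, range 3.92 on the log2 scale), Vegfb (WT replicate 5, 0.674, range 3.70) and Rps9 (WT replicate 3, 0.656, range 1.14). A high heart stood apart for Nudt19 (WT replicate 4, 0.812, range 1.77) and Egr1 (WT replicate 3, 0.698, range 1.58). The ranges of the other 5 were below 0.5: Bmp10 was high in WT replicate 6 (0.734), Fth1 was high in WT replicate 5 (0.804), Fabp4 was low in WT replicate 3 (0.704), Atp5po was low in WT replicate 5 (0.665) and Cox6a2 was low in WT replicate 2 (0.646).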

How the results depend on the processing

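The number of probes with an SD over 0.5 was 61, but 18 without background correction, 30 with normexp and an offset of 50, and 18 in the deposited log2 table. It was 57 to 68 when 1 heart was left out. Probes detected in every heart numbered 7673, against 6385 at a detection p under 0.01, 8935 when detection on 3 of 6 arrays was enough, and 7708 to 7806 when 1 heart was left out. Of the 100 brightest probes, 98 to 100 stayed among them under the alternatives run for the ranking. Of 708 SDs of the 118 detected probes named in the text, under 6 other settings, 92 moved by over 1.5 times, of which 25 were without background correction, 25 in the deposited table and 24 with median scaling. Leaving out 1 heart moved 35 of 708 by that much, 1 in each of 35 probes. The mean deviations of the interferon, MHC, atrial and fasting lists kept their sign in all 6 hearts under the 6 other settings, while those of the clock, erythroid, macrophage and small ribosomal lists changed sign in 1 or 2 hearts under some. The share of the widest probes with WT replicates 3 and 5 at one end was recomputed under the 6 settings after the data had been seen. No paired analysis was possible because 1 group was described and no groups were compared.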
